A study of Macaca fascicularis with 2 samples.

Results

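Stromal cells that carry transcripts of PI16 and MFAP5 were described in testis of the cynomolgus monkey (Macaca fascicularis), an Old World monkey used as a model of human reproduction. They were chosen by their own counts of 10x Genomics 3' single-cell libraries. A barcode had to hold at least 500 detected genes and, per 10000 unique molecular identifiers (UMIs, counted RNA molecules), at least 60 UMIs of DCN plus LUM, under 15 of ACTA2 plus MYH11, under 3 of PECAM1 plus CDH5 plus CLDN5 and under 50 of INSL3. These 4 conditions define the gated stromal cells. A gated cell with at least 3 UMIs of PI16 plus MFAP5 is called positive here, and one with none a zero cell. The rule found 3352 positive cells among 5552 gated stromal cells and 27353 cells in all. There were 2 libraries. One came from a testis placed in the abdomen on one side (UAT), a model of undescended testis, and the other from the testis left in the scrotum on the opposite side (CST). Of the positive cells, 2340 were in the UAT library and 1012 in the CST library. The number and age of the animals and the time spent in the abdomen were not given in the sources used here.

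PI16, a secreted peptidase inhibitor, and MFAP5, a glycoprotein of elastin-associated microfibrils, mark a fibroblast state found in the connective tissue of many mouse and human organs, often in the outer coat of vessels and in fascia. Such cells secrete collagens, proteoglycans and enzyme inhibitors, and in mice they are thought to be able to give rise to more specialised fibroblasts. In the testis, stromal cells lie between the seminiferous tubules beside Leydig cells, vessels and macrophages, while peritubular myoid cells wrap the tubules. A testis held in the abdomen is warmer than one in the scrotum and loses germ cells.

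Each position had 1 library, so no comparison has a replicate check and no test was possible. The UAT library held 12352 cells with at least 500 genes and a median of 7266 UMIs, and the CST library 15001 cells with a median of 6163 UMIs. The libraries shared 50 cell barcodes. Intervals are 95% intervals of counting error only. Spread between animals or between tissue digestions is not in them. Expression levels are summed UMIs of a class scaled to the class total, as CPM. Genes are counted by size, at 1.5-fold or more.

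Positive cells made up 57.0% (exact Clopper-Pearson interval 55.5 to 58.5) of the gated stromal cells in UAT and 69.9% (67.5 to 72.2) in CST. The positive cells were deeper in UAT, with a median of 8613 UMIs, than in CST, with 4983.5 UMIs, and a deeper cell reaches 3 UMIs more easily. When every cell was thinned to 3000 UMIs and shallower cells were left out, 24.4% (920 of 3777) of gated cells were positive in UAT and 67.0% (739 of 1103) in CST. With at least 5 UMIs of both genes together per 10000 in place of the fixed 3, the shares were 41.7% in UAT and 76.4% in CST. The share was therefore lower in UAT under each of these 3 counts, and the gap widened at equal depth. Shares are those of the rule, which uses the same counts, and describe the cells rather than test them.

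The rule also sets a floor under the rate of both genes per cell, and the floor is higher where cells are shallower. The lowest positive cell had 1.40 UMIs of PI16 plus MFAP5 per 10000 in UAT and 2.91 in CST, so the rates that follow are partly fixed by the rule. Among positive cells the median was 6.86 UMIs of PI16 plus MFAP5 per 10000 in UAT (quartiles 4.72 and 10.5) and 17.7 in CST (quartiles 11.7 and 27.4). PI16 summed to 505 CPM in UAT and 1309 CPM in CST, and MFAP5 to 299 CPM in UAT and 725 CPM in CST. Both transcripts were detected in 72.1% of the positive cells in UAT and 84.9% in CST. PI16 alone was detected in 24.3% and 13.5%, and MFAP5 alone in 3.63% and 1.58%, in UAT and CST in that order. PI16 was thus the commoner of the pair in both libraries. For the level of stray RNA, 0.792% of 631 cells gated on macrophage genes (median 5918 UMIs) had 3 UMIs or more in UAT and 1.05% of 95 (median 3657 UMIs) in CST. In cells gated on endothelial genes the share was 1.07% in UAT, at a median of 7562 UMIs, and 0.840% in CST, at 3380 UMIs.

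**Figure D1:**
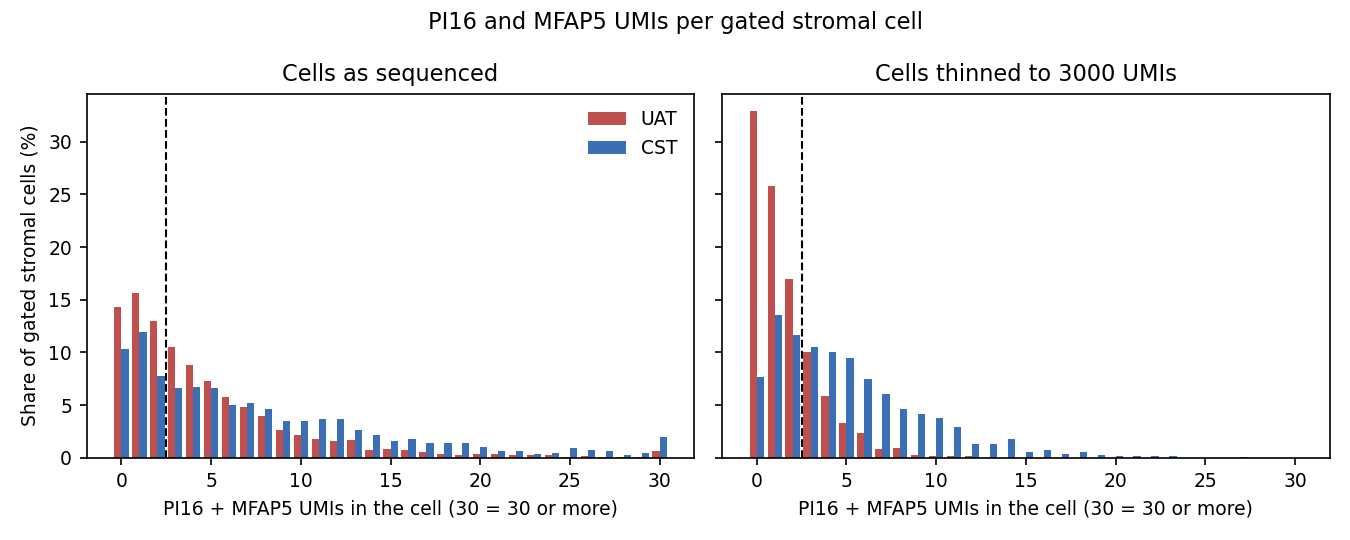
Histogram of PI16 plus MFAP5 UMIs per gated stromal cell (x axis) as a share of the gated cells of each library (y axis, percent), as sequenced on the left and thinned to 3000 UMIs on the right, with UAT in red and CST in blue. The dashed line marks the 3-UMI limit. In the thinned cells 32.9% of UAT cells and 7.71% of CST cells had none.

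The limit cuts through a continuum. Just inside it, 431 UAT and 96 CST cells had exactly 3 UMIs, and just outside it 533 and 113 had exactly 2. CLEC3B, which encodes the plasminogen-binding protein tetranectin, was at 970 CPM in UAT cells with 3 UMIs, against 897 CPM in those with 2 and 507 CPM in those with 0. In CST the same steps gave 2562, 1783 and 721 CPM. C7, a complement component, went the other way, with 578, 649 and 869 CPM in UAT and 162, 289 and 634 CPM in CST at 3, 2 and 0 UMIs. In UAT the steps were small on both sides of the limit. In CST, cells with 1 UMI already had 1507 CPM of CLEC3B and 251 CPM of C7.

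The label was held against marker genes. Of the 4 markers named for these cells, PI16, MFAP5 and DCN are genes of the rule, so their detection was fixed by it. The other marker, CLEC3B, was at 1463 CPM in UAT and 3809 CPM in CST. DCN, a small proteoglycan, was at 15724 CPM in UAT and 16143 CPM in CST. PDGFRA, a receptor typical of fibroblasts, was at 266 and 271 CPM in UAT and CST, and CD34, a surface sialomucin of adventitial fibroblasts, at 182 and 382 CPM. Some genes that accompany PI16 in mouse or human connective tissue were near the floor. DPP4, a cell-surface peptidase, was at 0.807 CPM in UAT and 1.31 CPM in CST, HAS1, a hyaluronan synthase, at 1.93 and 1.31 CPM, PCOLCE2, which helps process procollagen, at 7.22 and 4.30 CPM, and COL14A1, a fibril-associated collagen, at 10.7 and 8.04 CPM. Transcription factors of gonadal stroma were present: LHX9 was at 138 CPM in UAT and 180 CPM in CST, and GATA4 at 55.7 and 69.8 CPM.

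Markers of other cell types differed in level and in side. The 5 endothelial markers summed to 14.6 CPM in UAT and 7.29 CPM in CST, the 6 mesothelial markers to 9.24 and 7.29 CPM and the 5 T or NK markers to 6.86 and 5.24 CPM. Some sums were higher in UAT. The 5 macrophage markers summed to 75.6 CPM in UAT and 19.3 CPM in CST, the 6 pericyte markers to 332 and 201 CPM, the 4 adipocyte markers to 190 and 94.6 CPM, and the 4 Leydig cell markers present to 89.6 and 29.2 CPM. PDGFRB, a growth factor receptor, gave 259 and 159 CPM of the pericyte sum, and the lipase LPL 189 and 92.8 CPM of the adipocyte sum. Of the 4 Leydig cell markers, 3 were under 10 CPM in each library, all but INSL3, which the rule caps. Their part in the differences between UAT and CST was not tested. MYH11, a smooth muscle myosin, stayed at 576 CPM in UAT and 494 CPM in CST, below the limit of the rule, while ACTA2 was at 40.9 and 71.3 CPM. The 4 Schwann cell markers summed to 116 CPM in UAT and 141 CPM in CST. In each library 3 of the 4 were under 10 CPM, and 1 in UAT and 2 in CST were not detected. Germ cell RNA set the libraries apart. The 5 spermatid markers (PRM1, PRM2, TNP1, TNP2 and HMGB4) summed to 1.35 CPM in UAT positive cells, with TNP1 at 0, and to 9124 CPM in CST positive cells. In the whole libraries they stood at 1.72 CPM in UAT and 99850 CPM in CST, and in CST zero cells at 8137 CPM.

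Within the positive cells, other transcripts moved in steps with the PI16 and MFAP5 rate. From cells with 5 to under 10 UMIs per 10000, through 10 to under 20, to 20 to under 40, CLEC3B was at 1316, 2385 and 2980 CPM in UAT and 2222, 3397 and 4793 CPM in CST. GSN, an actin-severing protein that is also secreted, was at 1444, 2361 and 3240 CPM in UAT and 2301, 3295 and 4222 CPM in CST over the same steps. COL1A1, which encodes a chain of type I collagen, was at 1141, 1615 and 2391 CPM in UAT and 2239, 3208 and 3571 CPM in CST. All 3 were higher at each step in both libraries, and lower in UAT than in CST at every one of these steps. APOE, the lipid carrier apolipoprotein E, fell along the steps, with 4974, 4299 and 3462 CPM in UAT and 2573, 2305 and 1878 CPM in CST. APOD, another apolipoprotein, was also lower at each step, with 1992, 1771 and 1445 CPM in UAT and 578, 526 and 394 CPM in CST. The 3 strata held 1021, 541 and 92 cells in UAT and 158, 406 and 337 in CST. The strata are cut from the genes of the rule, so they describe the cells.

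**Figure D2:**
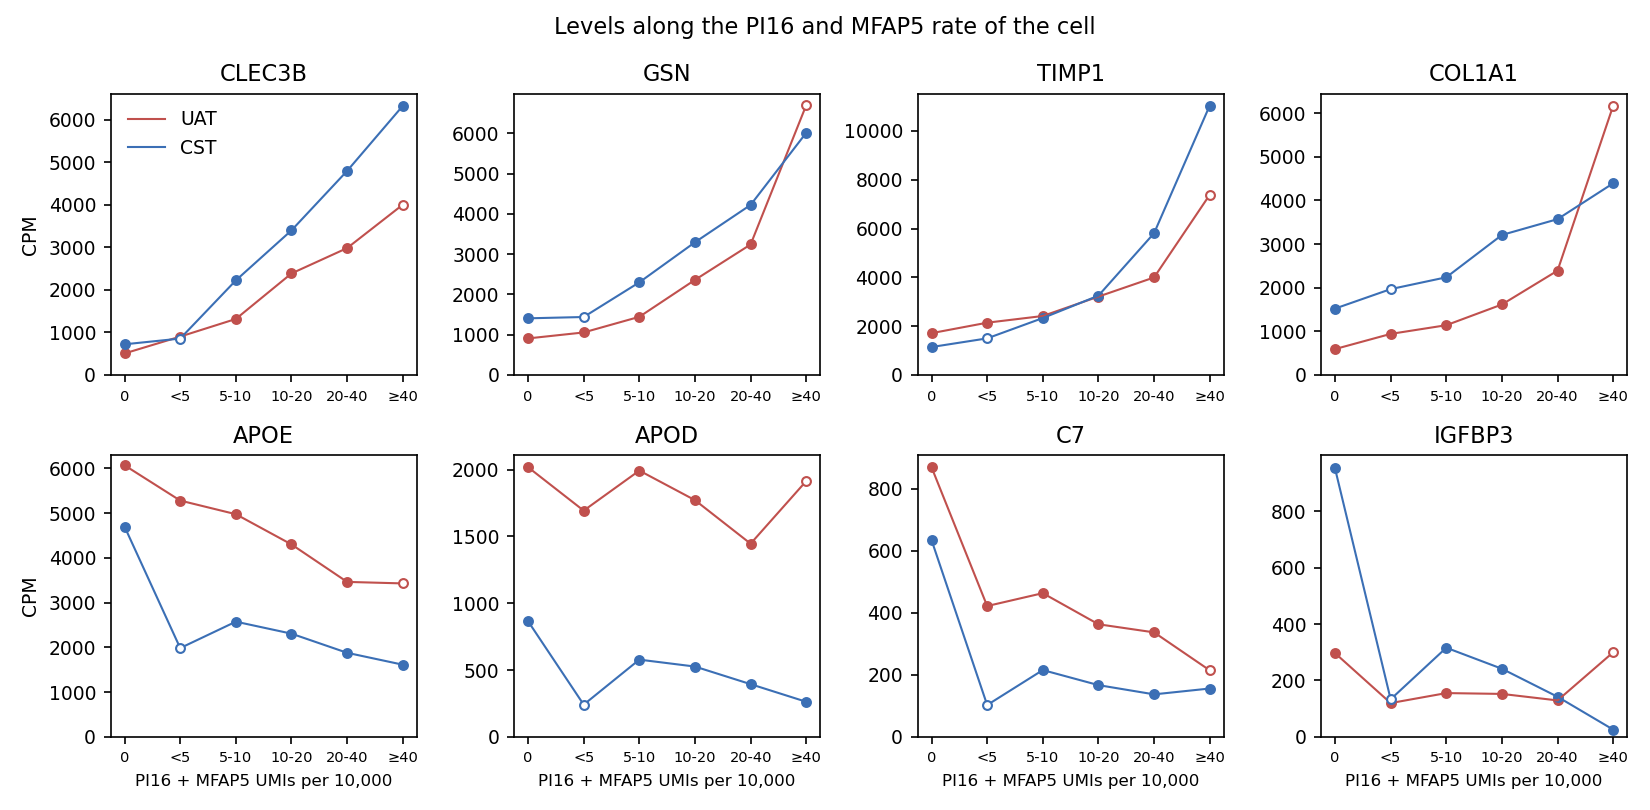
Level of 8 genes (y axis, CPM) in zero cells and in positive cells by PI16 plus MFAP5 UMIs per 10000 (x axis), with UAT in red and CST in blue. Open points rest on under 20 cells: 9 UAT cells at 40 or more and 17 CST cells under 5. CLEC3B, GSN, TIMP1 and COL1A1 climb with the rate in both libraries, and APOE, APOD and C7 lie higher in UAT in every stratum.

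Against zero stromal cells (588 in UAT and 150 in CST), positive cells of both libraries had more RNA of CLEC3B, type I collagen, fibronectin and versican, and less of APOC1, C7, IGFBP3 and CXCL12. Among 3143 genes compared in both libraries, 59 (1.88%) were at least 1.5-fold higher in positive cells of both libraries and 12 (0.382%) at least 1.5-fold lower in both. Counted per library, 2.32% were higher and 0.477% lower in positive cells of UAT, and 9.58% higher and 3.95% lower in those of CST. The cells were separated by their own counts of 2 stromal genes, and zero cells were shallower, with a median of 6001.5 UMIs in UAT and 2586 in CST, so this is a description. CLEC3B led the genes with at least 100 CPM in the higher class of both libraries. It had 1463 CPM in positive and 507 CPM in zero cells of UAT, a ratio of 2.89. In CST it had 3809 and 721 CPM, a ratio of 5.28. COL1A1 was at 1230 and 594 CPM in positive and zero cells of UAT and at 3219 and 1521 CPM in CST, ratios of 2.07 and 2.12. COL1A2, the other chain of type I collagen, had ratios of 1.99 in UAT and 2.12 in CST. FN1, which encodes the adhesive matrix protein fibronectin, had ratios of 2.25 in UAT and 2.51 in CST. CPE, a carboxypeptidase of peptide hormone processing, had 2.51 and 2.88, and THY1, a surface glycoprotein of fibroblasts, 2.31 and 1.90. VCAN, a large proteoglycan, stood at 1.86 in UAT and 2.45 in CST, and SCARA5, a ferritin receptor, at 1.87 and 3.45. The CST ratios rest on 150 zero cells. With zero cells widened to 0 to 2 UMIs the CST log2 ratio was 1.49 for CLEC3B (2.40 against cells with none), 0.56, under 1.5-fold, for COL1A2 (1.08), 0.62 for CPE (1.53) and 0.92 for SCARA5 (1.79), and in thinned cells CPE stood at 0.40.

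At the other end, APOC1, an apolipoprotein, was at 148 CPM in positive and 312 CPM in zero cells of UAT, a ratio of 0.475, and at 20.2 and 159 CPM in CST, a ratio of 0.127. C7 had ratios of 0.487 in UAT and 0.255 in CST. IGFBP3, which binds insulin-like growth factors, stood at 0.479 in UAT and 0.209 in CST, although in UAT cells thinned to 3000 UMIs the gap was under 1.5-fold. CXCL12, a chemokine that retains leukocytes and stem cells, had ratios of 0.494 and 0.287, and LPL, a lipase of triglyceride-rich lipoproteins, 0.726 and 0.311. Against cells with 0 to 2 UMIs the CST log2 ratio was -2.05 for APOC1 (-2.98 against cells with none) and -1.22 for C7 (-1.97). T or NK markers summed to 6.86 CPM in positive and 43.6 CPM in zero cells of UAT and to 5.24 and 77.1 CPM in CST, and their part in these ratios was not tested.

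**Figure D3:**
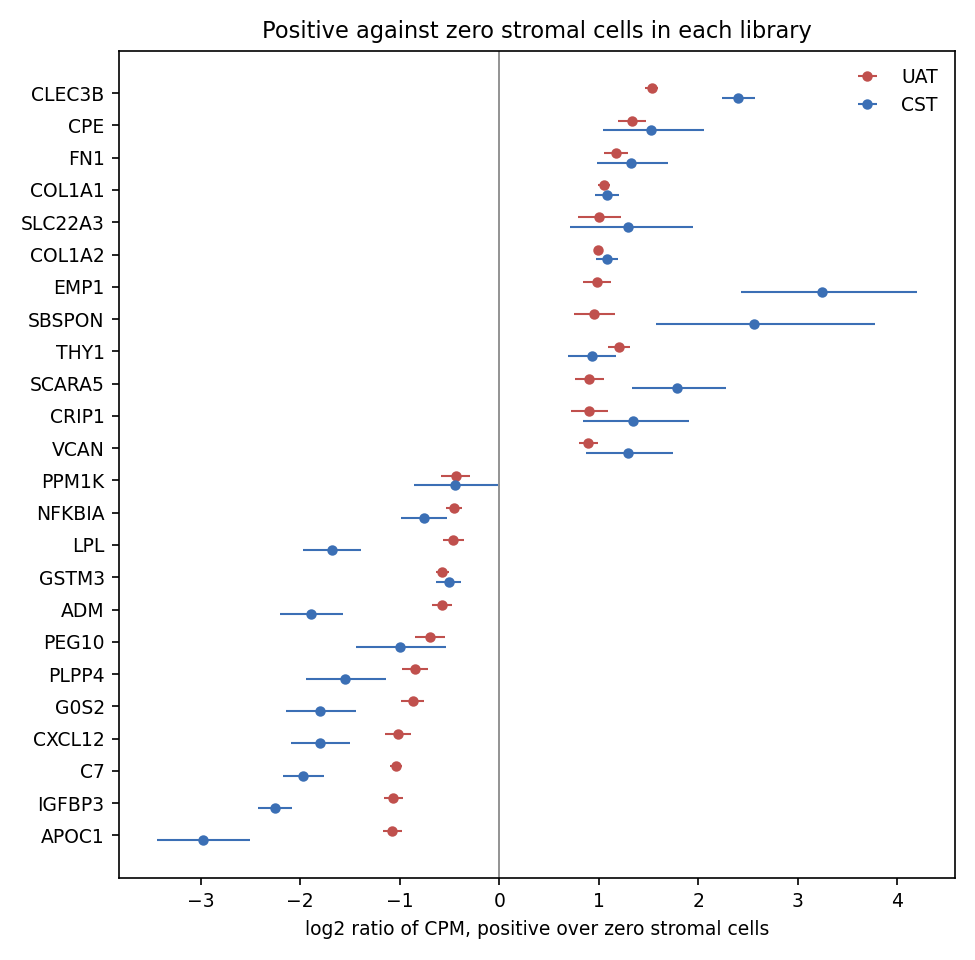
Log2 ratio of CPM in positive over zero stromal cells (x axis) for the 12 genes highest and the 12 lowest in both libraries (y axis). UAT is in red above CST in blue. Only genes with at least 100 CPM in the higher class of both libraries were ranked. Bars are 95% counting intervals. CLEC3B tops the upper group and APOC1 closes the lower one.

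A list of 24 genes reported for universal or adventitial fibroblasts, which includes PI16, MFAP5 and CLEC3B, was followed apart from the 2 genes of the rule. Of its 17 compared members, 7 were at least 1.5-fold higher in positive than in zero cells of both libraries and none was lower in both, with a median log2 ratio of 0.55 in UAT and 0.94 in CST. Over all 3143 genes, 1.88% were higher and 0.382% lower in both libraries, and the medians were -0.01 in UAT and 0.04 in CST. Besides CLEC3B, SLPI, a secreted protease inhibitor, reached ratios of 3.12 in UAT and 4.83 in CST, and SEMA3C, a guidance factor, 3.47 and 8.88. Against cells with 0 to 2 UMIs the CST log2 ratio was 1.25 for SLPI (2.27 against cells with none) and 1.96 for SEMA3C (3.15). PDGFRA had a ratio of 1.03 in both libraries. DPT, a matrix protein listed for the same state, stood at 1.04 in UAT and 0.663 in CST. Among 9 fibrillar and type VI collagen genes, 3 were higher in both libraries and none lower. Of 8 compared genes of the lipid transport and adipogenesis list, which does not hold APOC1, none was at least 1.5-fold lower in positive cells of UAT. In CST 6 were, against 0.477% of all compared genes in UAT and 3.95% in CST. Of 5 chemokine and cytokine genes, 1, CXCL12, was lower in both libraries, and CXCL14 was higher in UAT.

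The genes whose counts ran most like the sum of PI16 and MFAP5 across all gated cells, each thinned to 2000 UMIs (4058 cells in UAT and 1319 in CST), were CLEC3B, IGFBP6, GSN, MGP, COL1A2, THY1, CST3, TIMP1, COL1A1 and S100A10. Spearman's rho for CLEC3B was 0.25 in UAT and 0.43 in CST. TIMP1, an inhibitor of matrix metalloproteinases, had 0.18 and 0.49, and GSN 0.24 and 0.47. PI16 with MFAP5 themselves gave 0.12 in UAT and 0.35 in CST. The counts share a library and are sparse, and the correlation across cells is given as a description. With ribosomal protein genes left out of the ranking, APOE ran most opposite, at -0.13 in UAT and -0.29 in CST.

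Between abdominal and scrotal positive cells, transcripts of lipid carriers, sterol and lipid transporters and several matrix glycoproteins were higher in UAT, and type I collagen, CLEC3B, GSN and the cold-inducible RBM3 were lower. Of 4216 genes compared, 298 (7.07%) were at least 1.5-fold higher in UAT and 623 (14.8%) at least 1.5-fold lower. Mitochondrial transcripts took 6.29% of the UMIs of positive cells in UAT and 4.32% in CST. The part of this difference in the ratios was not tested. The lower side was led by germ cell transcripts. Ranked by the bound closest to equality, the 12 lowest were TNP1, PRM1, HMGB4, PRM2, CRISP2, TNP2, LELP1, BOD1L2, ANKRD7, SMCP, COX6B2 and PPP3R2. PRM1, which packs sperm DNA, was at 0.224 CPM in UAT and 3599 CPM in CST, and TNP1, a transition protein of spermatids, was not detected in UAT and stood at 1275 CPM in CST. Of the 623, 481 were lower in CST positive cells than in the whole CST library. They took 1.85% of UMIs in UAT positive cells and 6.33% in CST positive cells. Among the 3131 genes at least as high in CST positive cells as in the whole CST library, called native from here on, 279 (8.91%) were higher in UAT and 142 (4.54%) lower. The median log2 ratio was -0.07 over all compared genes and 0.03 over native ones. The native split was chosen after the values were seen.

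**Figure D4:**
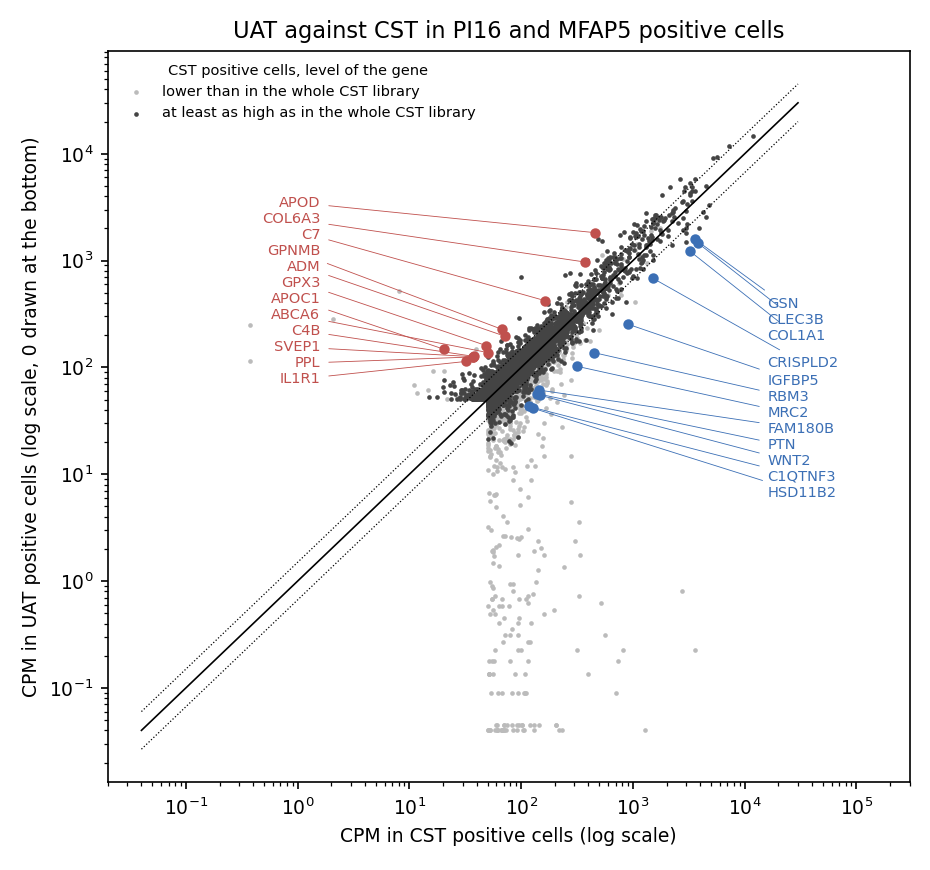
CPM of 4216 genes in UAT positive cells (y axis) against CST positive cells (x axis), both on log scales, with native genes in dark grey and the others in light grey. Dotted lines mark 1.5-fold. The 12 highest genes are named in red and the 12 lowest native genes in blue, and the light grey tail below the diagonal holds the germ cell transcripts such as PRM1, at 0.224 CPM in UAT and 3599 CPM in CST.

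Lipid genes led the higher side. APOC1 was at 148 CPM in UAT and 20.2 CPM in CST, a ratio of 7.35 (6.06 to 8.98). APOD was at 1826 and 459 CPM, a ratio of 3.98 (3.82 to 4.14). It was detected in 98.0% of positive cells in UAT and 65.8% in CST. Other cells also had more APOD in UAT, with ratios of 2.33 in zero cells and 3.04 in endothelial-gated cells. APOE was at 4881 CPM in UAT and 2141 CPM in CST, a ratio of 2.28 (2.24 to 2.32). The lipid transporters of the ABCA family stood together: ABCA6 had a ratio of 2.75, ABCA8 of 2.24 and ABCA1, which exports cholesterol to lipoproteins, of 2.05. LPL was at 189 CPM in UAT and 92.8 CPM in CST. The lipid transport and adipogenesis list does not hold APOC1. Of its 9 compared genes, 7 were at least 1.5-fold higher in UAT and none was lower, with a median log2 ratio of 1.04. The other compared members were the transcription factors CEBPD, at a log2 ratio of -0.04, and CEBPA, at 0.53. All 9 were native, and of all native genes 8.91% were higher in UAT and 4.54% lower. In zero cells the median of the same list was 0.37.

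IL1R1 and GPNMB were also among the 12 highest. IL1R1, the signalling receptor of interleukin-1, was at 114 CPM in UAT and 32.0 CPM in CST (ratio 3.56, 3.05 to 4.18). GPNMB, a transmembrane glycoprotein, was at 227 and 67.3 CPM (3.38, 3.03 to 3.77). In endothelial-gated cells IL1R1 had a ratio of 3.26 (2.71 to 3.96) and GPNMB one of 1.73 (0.962 to 3.42). In zero cells the ratios were 1.52 for IL1R1 and 2.14 for GPNMB. SVEP1, a large extracellular adhesion protein, had a ratio of 3.42, PPL, a cytolinker of the cell envelope, 3.38, GPX3, a secreted glutathione peroxidase, 3.28, and ADM, the vasodilator peptide adrenomedullin, 2.76. C4B had a ratio of 3.37, but 5 cells held 38.3% of its UMIs in CST, and with at least 10 UMIs of PI16 plus MFAP5 its log2 ratio was 1.12 in place of 1.75. COL6A3, a chain of type VI collagen, was at 969 CPM in UAT and 375 CPM in CST (2.59, 2.47 to 2.71). Macrophage markers also summed higher in UAT (75.6 against 19.3 CPM), and APOC1, GPNMB and APOE were at 587, 315 and 5116 CPM in UAT cells gated on macrophage genes. Without cells rich in germ or macrophage UMIs (2315 and 954 left), 272 genes were higher in UAT and 574 lower.

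On the lower side, the native gene with the lowest bound was IGFBP5, which binds insulin-like growth factors, at 254 CPM in UAT and 897 CPM in CST (ratio 0.284, 0.273 to 0.295). COL1A1 was at 1230 CPM in UAT and 3219 CPM in CST (0.382, 0.375 to 0.390), COL1A2 had a ratio of 0.519 and COL3A1, the type III collagen chain, 0.605. With at least 10 UMIs of PI16 plus MFAP5 the log2 ratio of COL3A1 was -0.35 in place of -0.73, under 1.5-fold. Of 9 fibrillar and type VI collagen genes, 4 were at least 1.5-fold lower in UAT and 1, COL6A3, higher. The median log2 ratio was -0.55 (-0.29 with at least 10 UMIs). All 9 were native, and of all native genes 4.54% were lower in UAT and 8.91% higher. MRC2, an endocytic receptor for collagen, was at 102 and 316 CPM in UAT and CST (0.324), and ADAMTS2, which trims procollagen, at 20.4 and 77.6 CPM (0.262). PLOD1 and LOX, which modify collagen lysines, had ratios of 0.610 and 0.637, so 3 of 7 genes of collagen processing were lower and none higher. LOX lost its 1.5-fold difference with at least 10 UMIs (log2 ratio -0.48), at 5 or more per 10000 (-0.54) and when centred on the median gene (-0.58), against -0.65. CRISPLD2, a secreted glycoprotein, was at 684 CPM in UAT and 1507 CPM in CST (0.454), and PTN, the growth factor pleiotrophin, at 56.8 and 138 CPM (0.411). HSD11B2, which inactivates cortisol, was at 41.6 and 127 CPM (0.328), and WNT2, a WNT ligand, at 54.9 and 147 CPM (0.372).

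Not all matrix genes were lower. Of 8 compared matrix glycoproteins, 4 were at least 1.5-fold higher in UAT and none lower, with a median log2 ratio of 0.49. All 8 were native, and of all native genes 8.91% were higher in UAT and 4.54% lower. THBS2, a thrombospondin, was at 57.2 CPM in UAT and 23.8 CPM in CST (ratio 2.41), TNXB, a tenascin, at 98.4 and 43.9 CPM (2.24), VCAN at 499 and 280 CPM (1.78) and ABI3BP at 645 and 396 CPM (1.63). The elastic fibre list was split, with FBLN1 and FBN1 at ratios of 1.72 and 1.53, MFAP2 and LTBP4 at 0.588 and 0.605, and 8 of 12 members within 1.5-fold. FBN1 fell under 1.5-fold in 5 alternatives, with log2 ratios of 0.41 to 0.58 against 0.61, and LTBP4 in thinned cells (-0.57 against -0.73). None of 5 small leucine-rich proteoglycans passed 1.5-fold. Of the proteases and inhibitors, TIMP1 had a ratio of 0.564.

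Over all positive cells, whatever their PI16 and MFAP5 rate, the universal fibroblast list leaned down in UAT. Of its 18 compared members, 6 were at least 1.5-fold lower, 1 was higher and 11 lay within 1.5-fold, with a median log2 ratio of -0.18. Of the 18, 17 were native, and of all native genes 4.54% were lower in UAT and 8.91% higher. CLEC3B was at 1463 CPM in UAT and 3809 CPM in CST (ratio 0.384, 0.377 to 0.391), GSN at 1581 and 3594 CPM (0.440), CD248, a surface sialomucin of fibroblasts, at 110 and 244 CPM (0.449), CD34 at 182 and 382 CPM (0.477) and COL15A1, a collagen of vascular basement membranes, at 318 and 652 CPM (0.488). PLA2G2A, a secreted phospholipase, had a ratio of 0.660, but in cells thinned to 3000 UMIs its log2 ratio was 0.09. SFRP2, a WNT modulator, was the higher one, at 591 and 340 CPM (1.74). The median of the same list in zero cells was -0.06.

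Positive cells were also set side by side at matched rates, 5 to under 10, 10 to under 20 and 20 to under 40 UMIs per 10000. CLEC3B then had UAT over CST ratios of 0.592, 0.702 and 0.622, and GSN 0.628, 0.717 and 0.767, closer to 1 than over all positive cells. Of the other universal fibroblast genes called lower, CD34 had 0.709, 0.697 and 0.589, and CD248 0.557, 0.535 and 0.637. COL15A1 had 0.602, 0.562 and 0.463, and PLA2G2A 0.298, 0.903 and 1.84. SFRP2, the higher one, had 2.01, 2.07 and 2.61. IGFBP6, which binds insulin-like growth factors, had a ratio of 0.672 over all positive cells and 1.0, 0.960 and 1.07 at matched rates. TIMP1 had 0.564 over all and 1.04, 0.988 and 0.688 at matched rates, and THY1 0.638 over all and 0.826, 0.942 and 1.07. COL3A1 had 0.734, 0.769 and 0.941 at matched rates and LOX 0.754, 0.796 and 0.930, all within 1.5-fold. COL1A2 had 0.657, 0.664 and 0.878, and PLOD1 1.12, 0.598 and 0.628. COL1A1 was lower in UAT at 0.510 and 0.503 and within 1.5-fold at 0.670. CRISPLD2 stood at 0.546, 0.511 and 0.463, and MRC2 at 0.437, 0.457 and 0.443. IGFBP5 had 0.284 over all positive cells and 0.394, 0.569 and 0.403 at matched rates. WNT2 had 0.372 over all and 0.592, 0.674 and 0.479 at matched rates. Genes higher in UAT over all positive cells were looked at in the same way. APOD stood at 3.45, 3.37 and 3.67, IL1R1 at 3.04, 3.24 and 4.93, COL6A3 at 2.06, 2.89 and 3.31, and APOC1 at 3.95, 4.30 and 3.29. UAT cells were deeper than CST cells at each rate, so a rate of the same value is measured with more error in CST.

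Some heat shock genes were higher in UAT, and 2 of 3 cold-inducible genes were lower. Of 18 compared heat shock genes, of which 9 were native, 6 were at least 1.5-fold higher in UAT and none was lower. The other 12 lay within 1.5-fold, and the median log2 ratio was 0.37 (0.22 in thinned cells). Over all compared genes, 7.07% were higher in UAT and 14.8% lower. HSP90AB1, a cytosolic chaperone, was at 1237 CPM in UAT and 588 CPM in CST (ratio 2.10, 2.03 to 2.18), HSPD1, a mitochondrial chaperonin, at 164 and 80.2 CPM (2.05), CRYAB, a small heat shock protein, at 94.4 and 46.0 CPM (2.05), and HSPB1 at 597 and 302 CPM (1.98). RBM3, which binds RNA and is induced when cells are cooled, was at 138 CPM in UAT and 449 CPM in CST (0.306, 0.290 to 0.323), and CIRBP, its relative, at 261 and 426 CPM (0.613, 0.584 to 0.643). The other member, the splicing factor SRSF5, was at 319 and 345 CPM (0.926). At the 3 matched rates RBM3 had ratios of 0.349, 0.305 and 0.259 and HSP90AB1 1.80, 1.83 and 1.56. Other cells gave ratios on the same sides. In zero cells RBM3 had a ratio of 0.329 and HSP90AB1 one of 2.24. In endothelial-gated cells the ratios were 0.373 and 1.84, and in macrophage-gated cells 0.570 and 2.72, for RBM3 and HSP90AB1. Of 18 immediate early genes, which enzymatic dissociation is known to induce, 5 were higher in UAT and 1 lower.

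Other lists gave smaller or mixed differences. The shares over all compared genes, to set beside their counts, were 7.07% higher in UAT and 14.8% lower. Of 14 complement genes, 4 were higher in UAT, C4B, C7 (423 against 162 CPM, ratio 2.61), CLU (2.24) and C2 (1.51). C2 fell under 1.5-fold in 5 alternatives, with log2 ratios of 0.49 to 0.57 against 0.59. C3 was lower, at 34.5 CPM in UAT against 76.5 CPM in CST, where 5 cells held 50.1% of the CST UMIs. Of the interferon response genes, IRF1, BST2 and IFITM1 were higher, at ratios of 1.89, 1.85 and 1.78, and IFI6 and MX1 were lower, at 0.625 and 0.646. CDKN1A, a cell cycle inhibitor induced by p53, was at 86.4 CPM in UAT and 29.4 CPM in CST (2.94, 2.5 to 3.49), and 3 of 5 genes of that list were higher, of which GADD45B fell under 1.5-fold in 4 alternatives (log2 ratios of 0.51 to 0.58 against 0.63). CXCL14, a chemokine, was at 147 and 64.5 CPM (2.29) and was detected in 16.8% of positive cells in UAT and 7.51% in CST. VCAM1, an adhesion molecule for leukocytes, was at 194 and 90.0 CPM (2.16). HES1, a Notch target, was at 177 and 326 CPM (0.543). The retinoid-degrading CYP26B1 was at 359 and 451 CPM (0.796), and none of the 5 compared genes of the retinoid list passed 1.5-fold. Only 1 gene of the cell cycle list, CCND2, was native, with a ratio of 0.655, which was within 1.5-fold when centred on the median gene (log2 ratio -0.54 against -0.61).

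**Figure D5:**
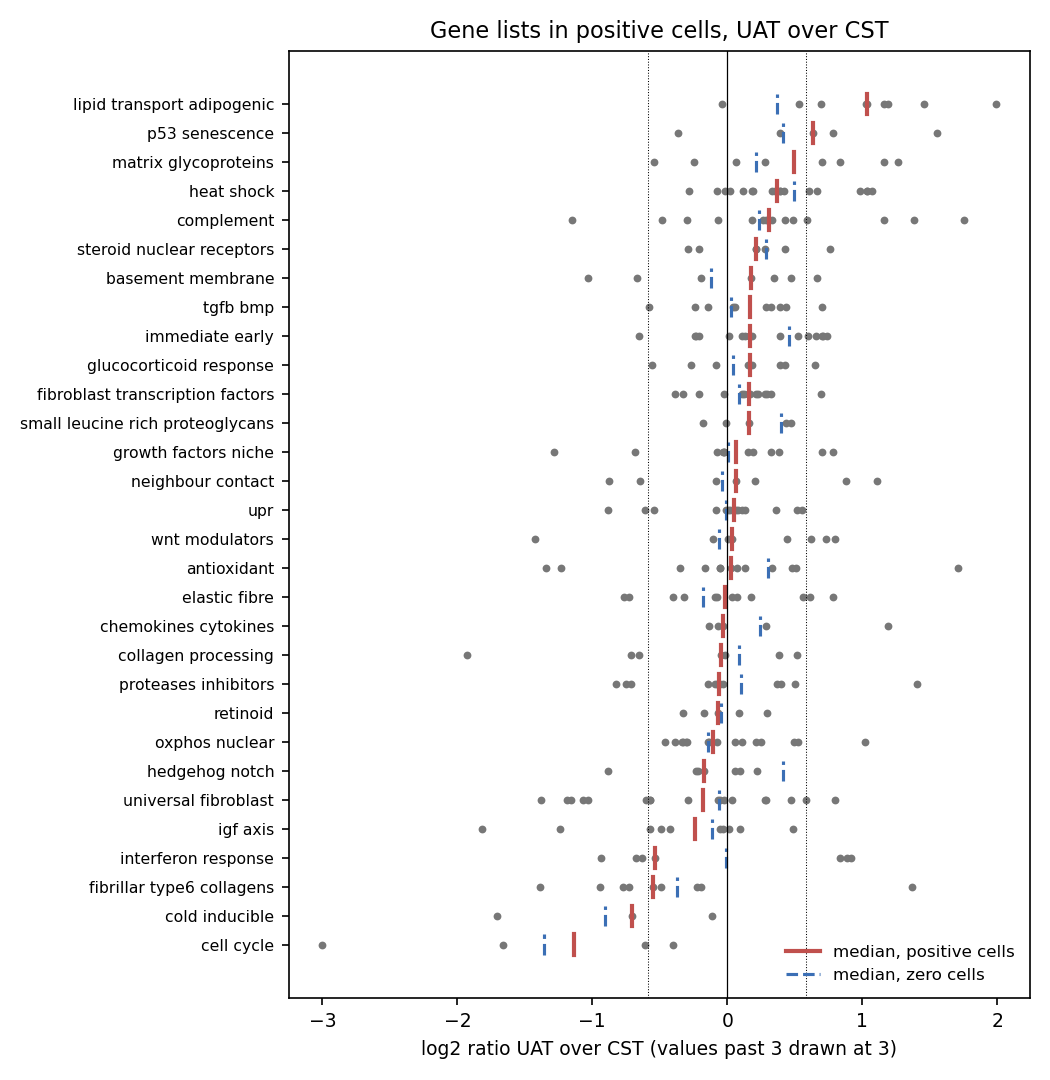
Log2 ratio UAT over CST in positive cells (x axis) for each compared gene (grey points) of 30 gene lists (y axis), with the list's median in positive cells (solid red) and in zero cells (dashed blue). Dotted lines mark 1.5-fold. The lipid transport list has the highest median, 1.04, and the cell cycle list, with 1 native gene of 4, the lowest, -1.14.

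The UAT over CST ratio was also set beside that in zero cells. Of 3406 genes with counts in both classes, the log2 ratio was at least 0.58 (1.5-fold) higher in positive cells for 135 (3.96%) and at least that much lower for 203 (5.96%). Both counts rest on 150 CST zero cells, and with zero cells widened to 0 to 2 UMIs they came to 43 and 45. SVEP1 had a ratio of 3.42 in positive cells and 1.15 (0.806 to 1.68) in zero cells. LPL had 2.04 and 0.873, APOE 2.28 and 1.29, and APOC1 7.35 and 1.96, in positive and zero cells. CXCL14 went opposite ways, at 2.29 in positive and 0.380 in zero cells. On the other side, TIMP1 had 0.564 in positive and 1.5 in zero cells, and PTGDS, a prostaglandin D synthase, 0.986 and 3.63. CLEC3B had 0.384 and 0.703, and EMP1, a tetraspan membrane protein, 0.838 and 4.01 (2.27 to 7.83). With zero cells widened, the difference of log2 ratios was 1.14 for CXCL14 in place of 2.59, 1.16 for APOC1 in place of 1.90, -1.10 for PTGDS in place of -1.88, -0.85 for EMP1 in place of -2.26 and -0.42 for CLEC3B in place of -0.87. COL1A1 had nearly the same ratio in both classes, 0.382 and 0.390, as did ABCA8 at 2.24 and 2.19. For CLEC3B, TIMP1, APOE and APOC1 the gap between positive and zero cells was smaller in UAT than in CST. The rule cuts the classes at unlike points in the 2 libraries. The median PI16 plus MFAP5 rate of positive cells was 6.86 per 10000 in UAT and 17.7 in CST. Zero cells had a median of 6001.5 UMIs in UAT and 2586 in CST. The part of the rule in these gaps was not tested.

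Positive cells of each library were also clustered alone without the genes of the rule, a step added after the data were seen. UAT gave 3 large groups of 902, 897 and 513 cells and 1 of 28 cells led by macrophage genes such as LYZ and CD163. The 897 cells were led by SELENBP1, NDUFA4, GSTM2, C13H2orf40, APOD and C7. APOD was at 3093 CPM against 1341 and 955 CPM in the other large groups. The 513 were led by PRSS23, PPL, FBN1, TNXB, ITGBL1, SEMA3C and COL6A3, with FBN1 at 1832 CPM against 648 and 400 CPM. The 902 were led by DPEP1, ACVR1C and PLA2G2A, with CXCL14 further down among their leading genes. CST gave groups of 431, 184, 165, 156, 34, 22 and 20 cells. The 184 cells were led by CPXM2, APOD, CXCL12 and FBLN5 and shared SELENBP1 and GSTM2 among their leading genes with the UAT group of 897. The 431 were led by PLA2G2A, C3, CFB and IGFBP5, and the 156 by MFAP4, QPCT, KLK3 and PTGDS. The groups of 34, 22 and 20 cells were led by germ cell genes, and spermatid markers summed to 136918 CPM in the last. Their highest log2 ratios over the other groups were 3.82, 4.74 and 5.18. The group of 165 was led only weakly, with 0.84 for ADAD1 as its highest. Its spermatid markers summed to 5649 CPM, against 3429, 3972 and 3529 CPM in the groups of 431, 184 and 156. CLEC3B was at 4852 CPM in it and at 4789 CPM in the group of 431. The leading genes made the groups and are no test of them.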

How the data were processed

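The authors deposited raw counts of UMIs (whole numbers) for each library. Per the file headers, Cell Ranger 5.0.0 made them. The processing notes of the submitters give version 3.0.1 and the mouse build mm10. Feature names are macaque symbols, so no coordinates are given. Of 28845 features, 721 known by a LOC number took their symbol from a RefSeq gene table (assembly not used for positions). From the deposited counts, UMIs were summed per class and library and divided by the class total (CPM). Genes that reached 50 CPM and 30 UMIs in either class were compared, without the genes of the rule. Ratios have exact conditional binomial 95% intervals, and shares have exact Clopper-Pearson ones. Intervals cover counting error only. With 1 library per group there was no test. Doublets stayed in, and an alternative removed the highest scores at 0.8% per 1000 barcodes (13.0% of positive cells in UAT and 11.8% in CST). Stray RNA could make up to 3.86% of UMIs of positive cells in UAT and 9.14% in CST, by the marker list that allowed least, and an alternative took it out. Clusters used scanpy 1.11.5 with 1500 genes, 20 components, 15 neighbours and Leiden resolution 0.5. Other steps used Python 3.11.15, numpy 2.4.6 and scipy 1.17.1, and the interval step was tested on simulated data.

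Named genes were the 12 highest and 12 lowest between UAT and CST, ranked by the bound closest to equality (at least 100 CPM, without mitochondrial, ribosomal, haemoglobin and LOC features), the 12 highest and lowest of positive over zero cells in both libraries, up to 5 members of each list, the 10 genes most like PI16 and MFAP5, and markers. The 12 lowest native genes, the matched rates and the genes named in clusters were added after values were seen. The members and lists were chosen with earlier results of these data known. Genes that share reads with near copies, such as C4B, are uncertain.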

Additional observations from a re-analysis of the deposited data

How the results depend on the processing

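No paired analysis was possible because each position had 1 library. Depth and the definition of a positive cell moved the shares most, and the share was lower in UAT than in CST under every alternative run. With doublets removed it was 55.3% in UAT and 68.8% in CST. With at least 1000 genes it was 57.5% in UAT and 73.2% in CST. Thinning to 3000 UMIs gave 24.4% and 67.0%, a minimum of 10 UMIs 13.3% and 31.6%, and 5 UMIs per 10000 41.7% and 76.4%, for UAT and CST. The counts of genes 1.5-fold apart between UAT and CST (298 and 623) became 682 and 2299 with a minimum of 10 CPM and 10 UMIs, and 81 and 337 at 2-fold. The lower count was 389 with stray RNA taken out and 142 among native genes. For positive over zero cells, 59 higher and 12 lower genes became 128 and 23 with at least 10 UMIs for a positive cell, 132 and 40 with the lower minimum, 14 and 4 at 2-fold, and 30 higher with zero cells widened to 0 to 2 UMIs. That last setting left 43 and 45 genes whose ratio differed between the classes. Among gene values called between UAT and CST, 16 of 106 came under 1.5-fold in thinned cells, 11 of 110 with stray RNA taken out, 10 of 113 at 5 UMIs per 10000, 9 of 111 with at least 10 UMIs, 7 of 113 when centred on the median gene, 5 of 113 with doublets removed, 4 of 113 as a mean over cells, 3 of 113 without cells rich in germ or macrophage UMIs, and none of 113 with at least 1000 genes. For positive over zero cells, 59 of 80 values of named genes were called, each value for 1 gene in 1 library. Of these, 9 came under with zero cells widened, 8 in thinned cells and at most 1 in the other alternatives. These 59 values are not the 59 higher genes above. Both sets of values cover named genes only. Of the called gene values and list medians, 1 reversed, PLA2G2A between UAT and CST, at a log2 ratio of 0.0908 in thinned cells. Differences between animals, or between one dissociation and another, cannot be told apart from those between positions.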

Other observations

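Some unnamed features set the libraries apart in every class looked at. LOC102133296 was at 524 CPM in UAT positive cells and 8.04 CPM in CST positive cells, and was detected in 65.6% and 2.67% of them. In macrophage-gated cells the same feature was at 6997 CPM in UAT and 5.37 CPM in CST, and in the whole libraries at 8080 and 207 CPM. LOC102141751 was at 283 CPM in UAT positive cells and 2.06 CPM in CST positive cells.

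HBB, the beta chain of adult haemoglobin, was at 248 CPM in UAT positive cells and 0.374 CPM in CST positive cells, while only 0.897% of UAT positive cells held any of it. In UAT zero cells it was at 0.813 CPM.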
